A study of Mus musculus with 12 samples.

Results

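The genes described here are the 78 mouse genes that encode proteins of the mitochondrial ribosome, taken as all protein-coding genes whose symbol begins with Mrpl or Mrps and a digit. They were 78 of 21887 protein-coding genes in the RefSeq gene table (GRCm38.p6, the same build as mm10), and comprised 49 Mrpl genes and 29 Mrps genes. The question was whether chromatin at the ends of these genes was open in recently activated neurons of the infralimbic prefrontal cortex (ILPFC), an area needed for fear extinction, and which of the genes were not open there.

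The assay was ATAC-seq, in which a transposase cuts accessible DNA and clusters of cuts are called as peaks. Each library came from the pooled ILPFC of 5 adult C57BL/6 male mice, 10 to 12 weeks old, with no transgene or deletion given in the labels. From each pool 50000 cells positive for Arc, an activity-regulated protein, and NeuN, a neuronal nuclear protein, were used. In fear conditioning, each mouse was given 3 tone and foot shock pairings at 0.7 mA. On the next day mice of the extinction group (EXT) were moved to a different context and heard 60 tones, whereas retention controls (RC) stayed in it equally long and heard none. Tissue was taken directly afterwards.

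Peak lists covering the whole genome were used for RC replicate 3 and EXT replicates 1 and 2, called RC 3, EXT 1 and EXT 2 from here on. Those of RC replicates 1 and 2 (RC 1 and RC 2), as held here, stop within chromosome 1 and served only for members located there. EXT replicate 3, which the labels describe as dropped, and the 6 lncRNA capture libraries of the series were not analysed here. With 1 complete RC list, differences between RC and EXT over the whole genome could not be tested and have no replicate check. For members on chromosome 1 the values of the further RC lists are given, with no test. In pooled cells, fewer cells with an open site and less opening per cell cannot be told apart.

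The mitochondrial ribosome makes the small set of proteins that mitochondrial DNA still encodes, all of them subunits of the respiratory chain and ATP synthase. All its proteins are encoded in the nucleus, made in the cytosol and imported, and the ribosome has a small subunit that reads the messenger RNA and a large subunit that joins the amino acids. Mrps symbols stand for small and Mrpl symbols for large subunit proteins, although Mrps30 and Mrps18a are now placed in the large subunit and Mrps36 in the 2-oxoglutarate dehydrogenase complex. Neurons depend heavily on respiration, and many genes of this kind have promoters bound by ETS family factors such as GABPA and by NRF1.

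The 5 libraries held between 57663722 and 73835799 tags each. The complete lists held 97961 peaks in RC 3, 80735 in EXT 1 and 123375 in EXT 2, with a median width of 204, 206 and 242 bp. Of 8 neuronal marker genes taken as a check of the sort, 7, 7 and 8 had a peak within 1 kb of an end in RC 3, EXT 1 and EXT 2. Over all protein-coding genes these shares were 56.1, 53.3 and 61.1%. Among markers of other cells, 1 of 5 astrocyte genes had one in each list, as did 2, 2 and 3 of 7 oligodendrocyte lineage genes, 1, 2 and 1 of 6 microglial genes, and 2, 1 and 2 of 4 endothelial genes. Rbfox3, which encodes NeuN itself, had one in EXT 2 only, and Arc had one in all 3 lists. Ranks, as percentiles defined below, did not part neurons from other cells. Arc stood at 9.0, 1.4 and 42.4, and the neuronal gene Map2 at 97.7, 98.0 and 90.7. Olig1 of the oligodendrocyte lineage stood at 99.9, 99.9 and 96.9, and Gfap of astrocytes at 15.5, 36.5 and 24.0. These values are therefore no measure of the purity of the sort.

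An end peak below is a peak that overlaps, by 1 bp or more, the 1 kb either side of either annotated end of the gene. Fold enrichment is the authors' ratio of the summit pileup to a local background estimated within that library. The percentile of a peak is the share of all peaks in its own list that have a lower fold, so that it is a rank within that list. Folds and percentiles of different lists are set side by side and not read as a change between libraries.

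Several members start so close to another gene that a single stretch of DNA lies before both, and those stretches carry much of what follows. They are printed from the RefSeq promoter table (GRCm38.p6), on the member's strand and 5′ to 3′. Capitals mark letters that match a searched motif on either strand: CCGGAAG for ETS factors, GCGCNTGCG for NRF1, AAGATGG for YY1, GGGCGG for the GC box of SP1 factors and TGACGTCA for CREB. A match is a description of letters and not a bound site.
The first stretch is the 41 bases between the starts of 2 members, Mrps11 (plus strand) and Mrpl46 (minus strand), at chr7:78783090-78783130, with 1 GC box.
Mrps11: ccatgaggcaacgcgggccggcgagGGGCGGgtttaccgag
The second is the 204 bases between Mrpl32 (minus strand) and Psma2, a subunit of the proteasome core, at chr13:14613038-14613241. It holds 1 GC box and 3 NRF1 matches, of which a pair overlaps on opposite strands.
Mrpl32: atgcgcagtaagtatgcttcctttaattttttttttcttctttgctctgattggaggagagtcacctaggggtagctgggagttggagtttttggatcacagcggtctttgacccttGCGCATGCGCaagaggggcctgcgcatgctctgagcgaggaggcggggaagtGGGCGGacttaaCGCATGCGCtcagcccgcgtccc
The third is the 191 bases between Mrpl49 (minus strand) and Fau, which encodes a cytosolic ribosomal protein fused to a ubiquitin-like one, at chr19:6057756-6057946. It holds 1 CREB match and 2 GC boxes.
Mrpl49: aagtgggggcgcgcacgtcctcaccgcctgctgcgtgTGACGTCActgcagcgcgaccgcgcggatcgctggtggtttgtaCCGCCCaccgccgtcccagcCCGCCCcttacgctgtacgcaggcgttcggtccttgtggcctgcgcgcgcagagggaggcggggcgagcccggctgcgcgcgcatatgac
The fourth is the 112 bases between Mrpl40 (minus strand) and Hira, a histone chaperone gene, at chr16:18876638-18876749, with 2 GC boxes.
Mrpl40: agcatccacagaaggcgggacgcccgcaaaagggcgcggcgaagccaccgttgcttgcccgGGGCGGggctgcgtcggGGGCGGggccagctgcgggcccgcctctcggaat
The fifth is the 146 bases between Mrps12 (minus strand), whose protein lies at the decoding centre, and Sars2, the mitochondrial seryl-tRNA synthetase, at chr7:28741822-28741967, with 1 GC box.
Mrps12: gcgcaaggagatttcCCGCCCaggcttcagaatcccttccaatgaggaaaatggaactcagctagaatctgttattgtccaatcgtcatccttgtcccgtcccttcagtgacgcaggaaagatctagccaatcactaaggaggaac
The last is the 92 bases between Mrpl50 (minus strand) and Zfp189, a zinc finger gene, at chr4:49521084-49521175, in which none of these motifs was found.
Mrpl50: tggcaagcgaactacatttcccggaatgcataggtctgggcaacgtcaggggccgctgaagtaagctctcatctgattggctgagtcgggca

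Nearly all members had an end peak. In RC 3 there was one at 74 of 78 members, or 94.9% (exact binomial 95% interval 87.4 to 98.6%), beside 56.1% of all protein-coding genes. EXT 1 had one at 71 of 78, or 91.0% (82.4 to 96.3%), beside 53.3%. EXT 2 had one at 74 of 78, or 94.9% (87.4 to 98.6%), beside 61.1%. The intervals cover counting error only. Members with an end peak in all 3 lists numbered 68 of 78, or 87.2% (77.7 to 93.7%), beside 49.0% of all protein-coding genes. A further 8 members had one in some lists (background 15.4%) and 2 had one in no list (background 35.5%).

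The mean EXT share was 1.92 percentage points below the RC share (-1.92), and it was 1.92 points above it with windows of 500 bp or with only peaks at least 200 bp wide. No direction is read from it.

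Of the 29 Mrps genes, 29, 25 and 28 had an end peak in RC 3, EXT 1 and EXT 2, and 24 had one in all 3 lists. Of the 49 Mrpl genes, 45, 46 and 46 had one, and 44 had one in all 3 lists. Both members lacking a peak in every list were Mrpl genes. The share in all 3 lists was 82.8% (64.2 to 94.2%) for Mrps and 89.8% (77.8 to 96.6%) for Mrpl genes, so these intervals overlap.

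**Figure D1:**
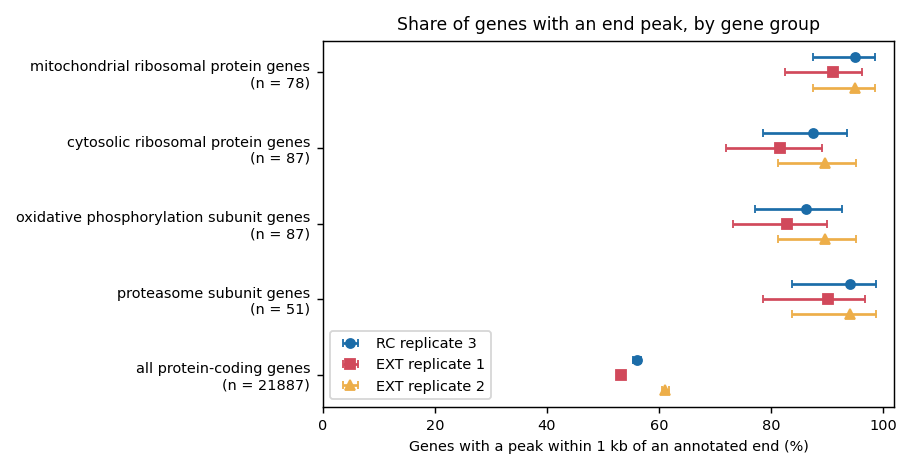
Share of genes (horizontal axis, percent) with a peak within 1 kb of an annotated end, for the members, 3 comparable gene groups and all protein-coding genes, in each complete list; bars are exact binomial 95% intervals. The members sit between 91.0% and 94.9%, and all protein-coding genes between 53.3% and 61.1%.

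Other large assemblies of nuclear-encoded proteins had shares of the same order. Genes of the cytosolic ribosome had an end peak in all 3 lists in 71 of 87 cases, or 81.6% (71.9 to 89.1%). Nuclear genes of oxidative phosphorylation subunits did so in 69 of 87, or 79.3% (69.3 to 87.3%), and proteasome subunit genes in 46 of 51, or 90.2% (78.6 to 96.7%). Each of these intervals overlaps that of the members. Overlap is no test of a difference and none was run, so the high share is not read as particular to the members.

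The members' peaks were of middling rank among gene-end peaks. The best end peak of a member, meaning the one with the highest fold, had a median percentile of 74.9 in RC 3, 69.3 in EXT 1 and 79.8 in EXT 2. For all protein-coding genes with an end peak the medians were 74.3, 72.8 and 80.5. The median fold of the members was 5.54, 4.81 and 7.01, beside 5.49, 5.06 and 7.11. The members' best peaks were wider, with medians of 536, 540 and 592 bp beside 447, 405 and 538 bp. This was not particular to them. Median widths were 575, 512 and 696 bp for cytosolic ribosomal protein genes and 579, 563 and 629 bp for oxidative phosphorylation genes. Proteasome genes had 512, 440 and 601 bp. Above the 90th percentile lay 13, 7 and 26 members (17.6, 9.86 and 35.1% of those with a peak), beside 24.9, 19.2 and 32.0% of all protein-coding genes. Below the 50th lay 12, 16 and 6 members (16.2, 22.5 and 8.11%), beside 23.3, 23.9 and 19.9%. Only members with a peak enter these medians.

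**Figure D2:**
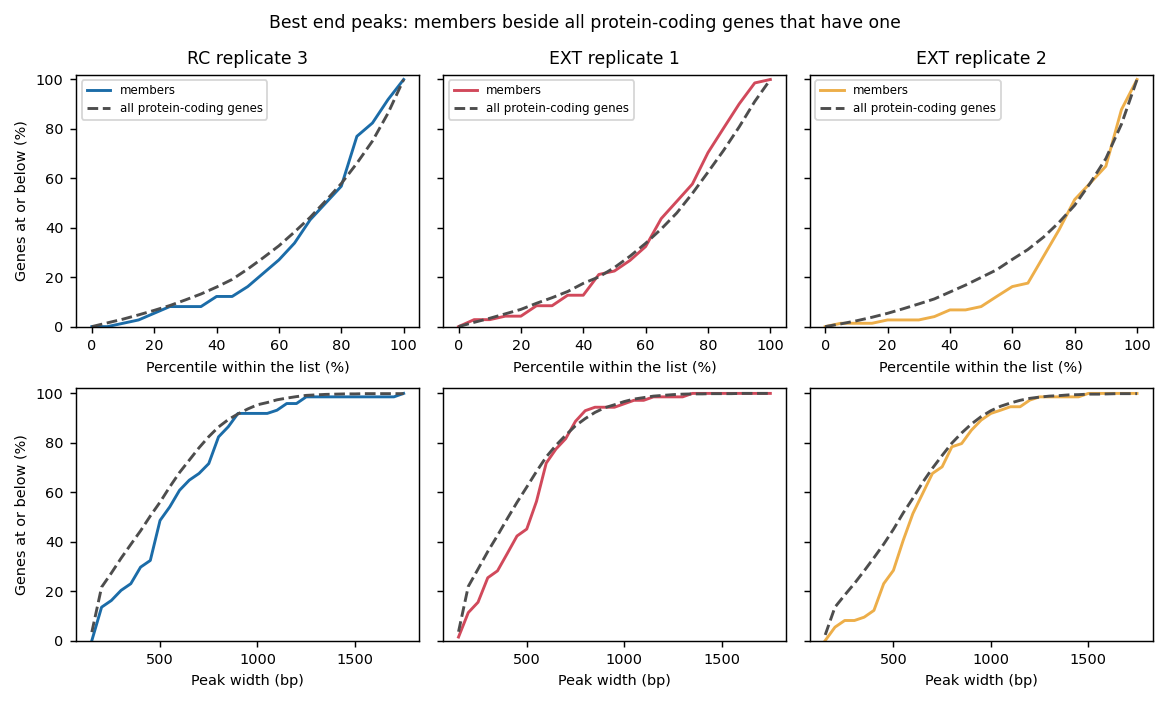
Cumulative share of genes (vertical axis, percent) by percentile within the list (upper row) and by peak width in bp (lower row) of the best end peak, for members (solid) and all protein-coding genes with an end peak (dashed). The percentile curves run close together around the medians of 74.9 and 74.3 in RC 3. The width curves of members lie to the right up to 850 bp in RC 3, 700 bp in EXT 1 and 1200 bp in EXT 2, beyond the medians of 536, 540 and 592 bp.

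The member with the highest mean percentile, 97.0, was Mrpl18 (chr17:12911345-12917787, minus strand), whose protein binds near the central protuberance of the large subunit. Its best peak had a fold of 12.28 in RC 3, 8.47 in EXT 1 and 14.90 in EXT 2, with widths of 1133, 1112 and 913 bp. The peak spans the start that faces Tcp1, which encodes a subunit of the cytosolic chaperonin and begins 238 bp away. Mrpl47 (mean percentile 95.9), which faces Ndufb5 of respiratory complex I, had folds of 9.57, 8.23 and 15.51 and widths of 1115, 1003 and 1153 bp. Mrps9 (95.7), a small subunit gene on chromosome 1, had folds of 10.44, 7.57 and 17.01. Mrpl41 (95.4), which faces Pnpla7, had folds of 8.96, 8.90 and 12.96. Each of these 4 genes stood above the 90th percentile in every list, with lowest values of 93.5 for Mrpl18, 93.0 for Mrpl47, 90.7 for Mrps9 and 94.3 for Mrpl41.

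Mrps30 (95.4) reached the same rank with a peak of another shape. Its best peak was 166 bp wide in RC 3, 172 bp in EXT 1 and 753 bp in EXT 2, with folds of 9.97, 16.58 and 9.26. The 2 narrow peaks lie inside the gene, from position 118386748 to 118386913 and from 118386744 to 118386915 of chromosome 13, and the wide one runs on across the start.

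Among the 68 members with an end peak in all 3 lists, the widest best peaks on average belonged to Mrpl51 at 1256 bp, Mrpl47 at 1090 bp and Mrpl18 at 1053 bp. Mrpl51, which faces the condensin gene Ncapd2 across 614 bp, had widths of 1216, 1312 and 1241 bp and folds of 7.58, 5.39 and 10.90. The narrowest on average among these 68 were those of Mrps21 at 277 bp, Mrps34 at 281 bp and Mrpl22 at 302 bp. Those of Mrpl22 lay near its far end and not at its start. Mrps21 lies 8 bp from the lncRNA gene C920021L13Rik, and its widths were 297, 160 and 374 bp.

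At the other extreme among the 68, Mrps34 had the lowest mean percentile, 14.7, with folds of 2.79, 2.91 and 2.48. Its best peaks did not cover the same bases in the 3 lists. Mrpl53 (18.6), a protein of the stalk region of the large subunit, had folds of 2.92, 2.75 and 3.03. Mrpl22 (28.7), at the polypeptide exit tunnel, had folds of 2.53, 3.16 and 4.22. Its best peaks lay near the far end of the gene, and those of RC 3 and EXT 1 were 167 and 150 bp wide. The RefSeq start of Mrpl22 lies 1621 bp inside the annotated span, and a peak lay within 1 kb of that start in all 3 lists. The low values of Mrpl22 thus do not describe its start.

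Mrpl35 and Mrps22 had ranks that differed widely between the lists. Mrpl35 (40.1) stood at percentile 46.3 in RC 3, 2.5 in EXT 1 and 71.6 in EXT 2. Mrps22 (41.7) stood at 20.0, 22.2 and 82.9. In both genes the 2 EXT lists stood further from each other than RC 3 stood from EXT 1. The lists furthest apart were the 2 EXT lists for Mrpl35, but RC 3 and EXT 2 for Mrps22.

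**Figure D3:**
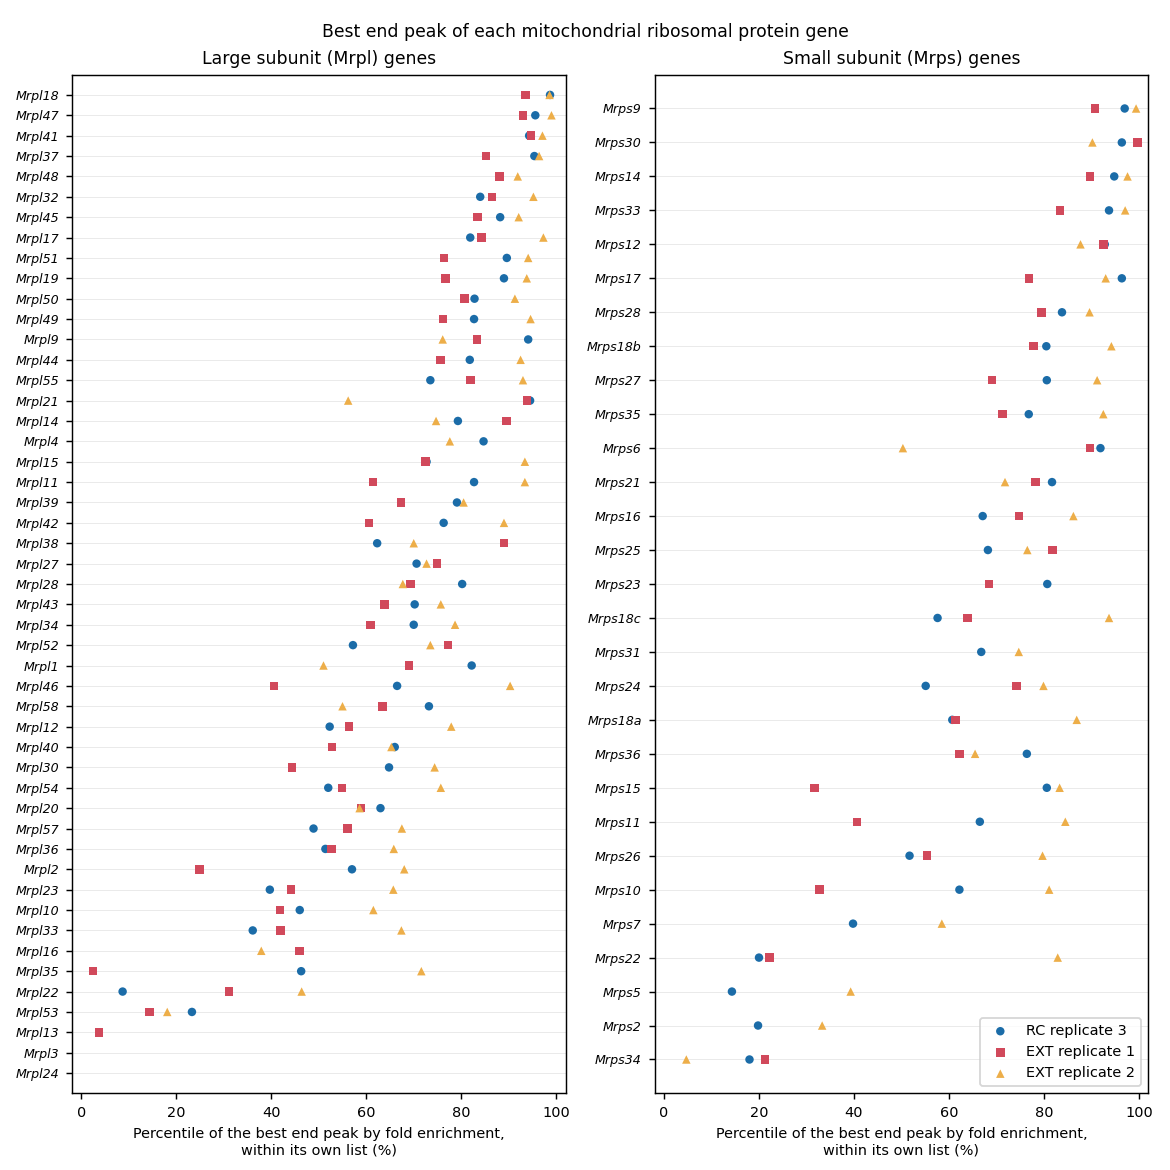
Percentile of each member's best end peak within its own list (horizontal axis, percent), 1 row per gene, large subunit symbols left and small subunit symbols right, ordered by the mean over the lists that have a peak. Rows run from Mrpl18 (97.0) and Mrps9 (95.7) at the top to Mrpl3 and Mrpl24, which have no point; the 3 markers of a gene often lie far apart, as in Mrps22.

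Where the same gene was read in several libraries, the peak was usually the same one. Of the 68 members in all 3 lists, the best peaks shared bases across all 3 in 56, or 82.4%, beside 82.9% for all protein-coding genes, and their summits spread over a median of 71.5 bp beside 56.0 bp. The order of the members by percentile was alike between RC 3 and EXT 1 (Spearman's rho 0.82 over 69 genes), and less so between RC 3 and EXT 2 (0.65 over 73) and between the EXT lists (0.53 over 69). All protein-coding genes gave 0.82, 0.73 and 0.62. These are descriptions across genes, which are not independent replicates and share a library within each list. The 2 libraries least alike were thus of the same group.

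The 5 members on chromosome 1 could be read in further RC libraries. Mrpl15 had an end peak in all 5 lists, with folds of 8.86, 10.57 and 5.34 in RC 1 to RC 3 and 5.04 and 10.56 in EXT 1 and EXT 2. Within the part of chromosome 1 that each list holds, these peaks stood at percentiles 87.2, 88.5 and 71.7 for RC and 71.5 and 93.4 for EXT, so the groups overlap. Mrpl30, Mrpl44, Mrps9 and Mrps14 each had one in the 4 lists that reach them. In RC 1 their folds were 6.84, 9.94, 16.24 and 14.29, beside 4.73, 6.33, 10.44 and 9.23 in RC 3. Their percentiles on chromosome 1 were 79.8, 89.7, 98.0 and 96.2 in RC 1, and 63.8, 81.4, 97.4 and 95.1 in RC 3. Mrps9 and Mrps14, both small subunit genes, were thus near the top of every RC list that reaches them. In EXT 1 these 2 genes stood at 91.2 and 89.9, and in EXT 2 at 99.5 and 97.5.

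The peaks of the members lay mostly at their starts. Strand and start positions were taken from the promoter table, which has an entry for 69 of the 78 members. No entry was found for Mrpl13, Mrpl15, Mrpl19, Mrpl38, Mrpl4, Mrpl54, Mrps28, Mrps34 and Mrps35. Among members with an entry and an end peak, 48 of 66 in RC 3, 53 of 63 in EXT 1 and 47 of 66 in EXT 2 had peaks at the 5′ end only. A further 17, 9 and 18 had peaks at both ends, and 1 in each list at the 3′ end only. The best peak covered a RefSeq start in 50, 48 and 58 members. Its summit lay at a median of -29.0, -27.0 and -28.0 bp from the start, that is upstream of it, and within 250 bp in 45, 48 and 55 members. These positions were not counted over all protein-coding genes, so they are not read as particular to the members. Counting only windows of 1 kb around RefSeq starts, 67, 64 and 68 of the 69 had a peak and 63 (91.3%) had one in all 3 lists, beside 49.9% of 17492 protein-coding genes with an entry.

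**Figure D4:**
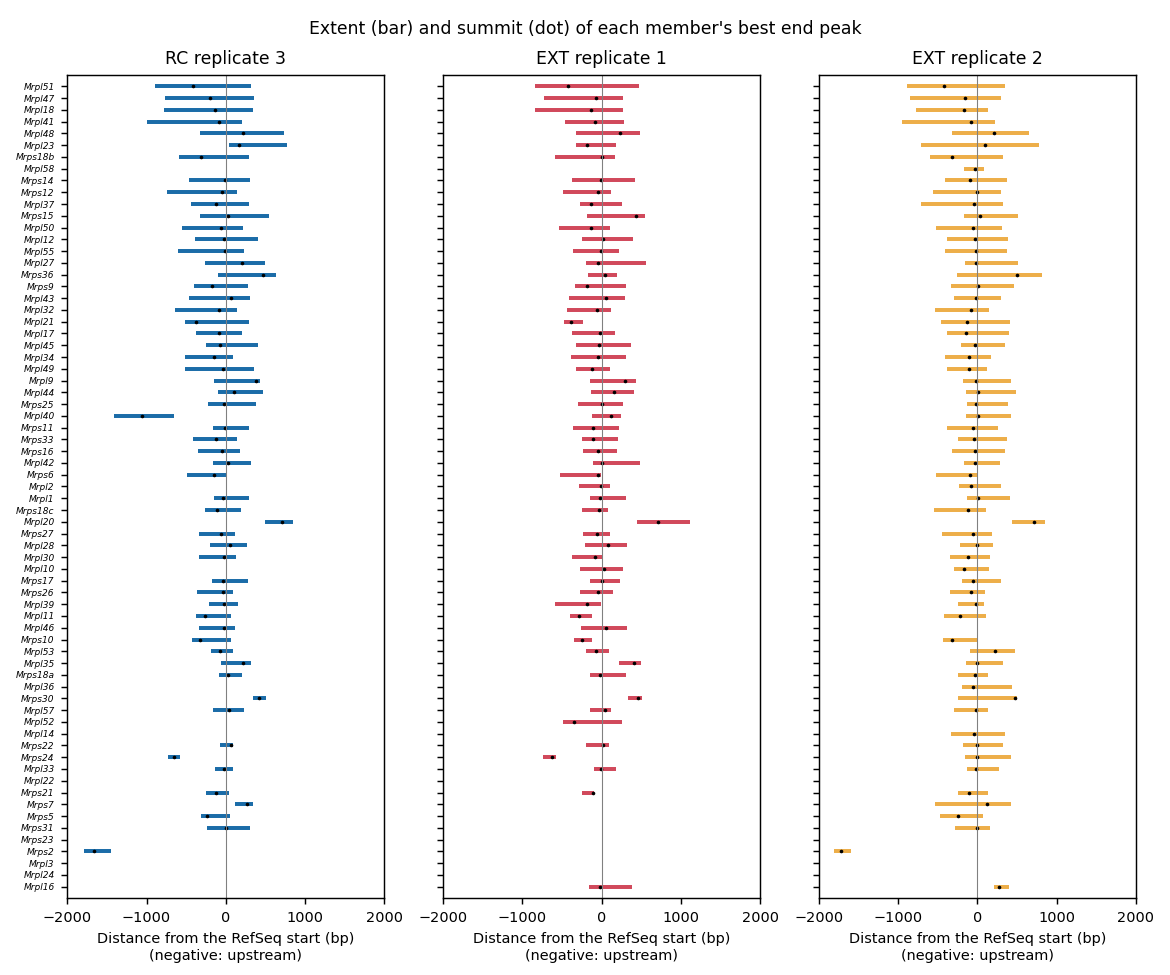
Extent (bar) and summit (dot) of each member's best end peak against distance from the nearest RefSeq start in bp, upstream to the left, for the 69 members with an entry, ordered by mean width. Most bars cross 0 in each panel; empty rows have no end peak in that list or, for 8, 5 and 3 members, a best peak more than 2000 bp from the start.

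The members lacking an end peak in every list were Mrpl3 and Mrpl24, both of the large subunit. Mrpl24 lies at chr3:87918131-87923450 on the plus strand. Its RefSeq start, at position 87919544, lies 1413 bp inside the annotated span, and a peak covers it in all 3 lists with folds of 4.07, 2.98 and 5.86 and widths of 745, 311 and 435 bp. Mrpl3 (chr9:105053268-105077466, plus strand) had no peak at its start in any list. The peak nearest to it was 5050 bp away in RC 3, 5060 bp in EXT 1 and 4608 bp in EXT 2. The 250 bases before its start, chr9:105053018-105053267, are shown as those of the one member with an entry and no peak at a start, and they hold an ETS match close to the start.
Mrpl3: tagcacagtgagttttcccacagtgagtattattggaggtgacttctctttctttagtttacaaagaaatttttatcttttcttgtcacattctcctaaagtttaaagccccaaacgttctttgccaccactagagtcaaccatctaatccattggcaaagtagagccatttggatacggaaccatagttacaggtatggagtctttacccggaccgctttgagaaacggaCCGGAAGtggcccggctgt

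Among the 8 members with an end peak in some lists, Mrpl16 was the only one with a peak in each EXT list and none in RC 3, a pattern that 2.01% of protein-coding genes showed. In EXT 1 a peak 545 bp wide with a fold of 3.55 (percentile 45.9) covered its start. In EXT 2 its best peak was 189 bp wide with a fold of 3.78 (37.9), and a second one of 204 bp and fold 2.80 covered the start. In RC 3 the nearest peak lay 66192 bp away. With 1 of 78 members and a background of 2.01%, nothing is read from this count. No member had an end peak in RC 3 alone (background 1.06%). The 250 bases before the start of Mrpl16, chr19:11770165-11770414 on the plus strand, hold 1 of the 2 CREB matches found among members.
Mrpl16: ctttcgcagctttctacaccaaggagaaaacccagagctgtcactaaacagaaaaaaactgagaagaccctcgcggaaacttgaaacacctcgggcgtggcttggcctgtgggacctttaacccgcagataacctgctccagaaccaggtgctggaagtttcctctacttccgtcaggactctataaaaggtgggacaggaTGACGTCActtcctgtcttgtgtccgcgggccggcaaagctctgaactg

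A pattern shared by 5 members was a peak in RC 3 and EXT 2 and none in EXT 1, the list with the fewest peaks. These were Mrpl4, Mrps2, Mrps5, Mrps7 and Mrps31. Over all protein-coding genes 4.69% showed this pattern, and nothing is read from 5 of 78 members. Mrps5 had folds of 2.70 and 3.88 (percentiles 14.3 and 39.3), and Mrps7 had 3.44 and 4.88 (39.8 and 58.5). Mrps31 had folds of 4.87 and 6.29 (66.8 and 74.7). Mrps2 had 2.84 and 3.58 (19.8 and 33.3) near its annotated end, and other peaks of fold 2.54 and 4.57 over its RefSeq start, which lies inside the span. Mrps2, Mrps5 and Mrps7 thus ranked below the 50th percentile of the RC 3 list. Mrps5 and Mrps7 face Zfp661 and Gga3, and these neighbours also had an end peak in 2 lists only. Mrpl4 was different, since both of its lists gave a peak of 161 bp with identical bounds and a fold of 6.70, 557 bp before the annotated span. In EXT 1 the peak nearest to an annotated end was 515 bp wide with a fold of 4.71 and began 1141 bp inside the gene.

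Mrps23 and Mrpl13 made up the 8. A peak in RC 3 and EXT 1 only, as at Mrps23, was found for 1.27% of protein-coding genes. One in EXT 1 only, as at Mrpl13, was found for 1.03%. Mrps23 had an end peak of 160 bp with identical bounds in RC 3 and EXT 1, with folds of 6.21 and 4.71. Its RefSeq start lies 10282 bp inside the annotated span and is covered by a peak in all 3 lists, with folds of 5.79, 3.84 and 6.13. Mrpl13 had a peak of 197 bp and fold 2.41 (percentile 3.7) in EXT 1 only. Identical bounds in 2 or more lists were found for 5 of 75 members, or 6.67%, beside 11.2% of all protein-coding genes. A width of 160 bp was the most common one in every list.

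Many members shared their peak with a neighbouring gene. The best end peak also lay within 1 kb of an end of another protein-coding gene in 36 of 74 members (48.6%) in RC 3, beside 25.9% of all protein-coding genes that had end peaks. In EXT 1 it did so in 35 of 71 (49.3%), beside 26.2%, and in EXT 2 in 36 of 74 (48.6%), beside 24.8%. No test was run on these shares, since neighbouring members are not independent. In each list 4 members shared the peak with a lncRNA gene only. Over all protein-coding genes with an end peak, 1163 of 12268 in RC 3 did so, 1144 of 11674 in EXT 1 and 1288 of 13381 in EXT 2. Sharing with a lncRNA gene only was thus no more frequent in members.

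By RefSeq starts alone, which use no peak, 25 of 69 members (36.2%) began within 1 kb of a protein-coding gene on the opposite strand, beside 9.61% of 17492 genes. Facing starts were more frequent among genes with an end peak in all 3 lists, with 1484 of 8659 protein-coding genes beside 23 of 61 members. These 25 members formed 24 pairs, because Mrps11 and Mrpl46 face each other. The starts were 32 to 935 bp apart with a median of 131 bp, and 20 of 25 were within 250 bp. In 24 members the genes ran away from each other, and in Mrpl48 the start lay inside the facing gene, Rab6a, a Golgi GTPase gene.

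Among pairs whose best peak was held in common in all 3 lists, the closest were Mrpl21 with the helicase gene Ighmbp2 (starts 32 bp apart), Mrpl48 with Rab6a (36 bp), Mrpl27 with the nuclease subunit gene Eme1 (48 bp) and Mrpl30 with Mitd1 (66 bp). Mrpl57 with the kinetochore gene Ska3 (76 bp), Mrpl50 with Zfp189 (93 bp) and Mrps27 with Ptcd2, a mitochondrial RNA-binding protein gene (108 bp), followed. Mrpl37 stood 128 bp from Cyb5rl, and Mrps18b 756 bp from Ppp1r10, which encodes a regulator of protein phosphatase. Several neighbours are themselves mitochondrial. Mrpl43 faces Twnk, the helicase of mitochondrial DNA, across 116 bp, Mrpl47 faces Ndufb5 across 308 bp, and Mrps12 faces Sars2 across 147 bp.

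The values at these pairs belong to both genes. The peak between Mrps12 and Sars2 had folds of 8.45, 8.08 and 8.58 and widths of 883, 609 and 853 bp. That between Mrpl32 and Psma2 had folds of 6.63, 6.73 and 11.49, and that between Mrpl49 and Fau 6.44, 5.35 and 11.17. At Mrpl50 and Zfp189 the folds were 6.46, 5.84 and 9.68, where the peak covered both starts. At Mrpl40 and Hira the folds were 4.77, 3.85 and 5.35, and in RC 3 the best peak lay on the Hira side without covering the start of Mrpl40. Mrps11 and Mrpl46 had the same best peak in RC 3 (fold 4.84) and EXT 1 (3.38). In EXT 2 the best peak of Mrps11 had a fold of 7.84, and that of Mrpl46 was another one, 160 bp wide with a fold of 9.37.

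Close ends also occurred without a facing start of a protein-coding gene in the table. Mrps6 and Slc5a3, a myo-inositol transporter gene, start 14 bp apart on the same strand, and their common peak had folds of 8.15, 7.38 and 4.43. The ends of Mrpl54 and Apba3 lie 9 bp apart, and those of Mrpl53 and Ccdc142 13 bp apart. A lncRNA gene, 4930473A02Rik, does face Mrps26, with its start 8 bp away on the opposite strand. In all, 28 members shared their best peak with the same protein-coding gene in all 3 lists, of which 20 were head to head and 4 on the same strand. These were not counted over all protein-coding genes, and nothing is read from them.

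Members with a facing start had an end peak in all 3 lists in 23 of 25 cases (92.0%), and those without one in 38 of 44 (86.4%). Over all protein-coding genes with an entry the shares were 88.3% and 45.4%, a far wider gap. The median percentile of paired members was 80.5, 76.4 and 90.3 in RC 3, EXT 1 and EXT 2, beside 73.2, 65.4 and 77.9 for unpaired ones. All protein-coding genes were split much alike, with 81.7, 77.8 and 89.9 for paired and 73.5, 72.3 and 79.7 for unpaired genes. The median widths of paired members were 760, 581 and 679 bp, beside 474, 509 and 537 bp for unpaired ones. Over all protein-coding genes these widths were 636, 557 and 736 bp, beside 424, 389 and 517 bp.

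The promoter windows, 250 bases before to 50 after each RefSeq start, were searched for short motifs of factors named above and for the TATA box. CCGGAAG (ETS factors) was found in 37.7% of the 69 members, beside 12.9% of all protein-coding genes and 20.6% of those with an end peak in all 3 lists. GCGCNTGCG (NRF1) was found in 26.1%, beside 9.68% and 16.3%, and AAGATGG (YY1) in 18.8%, beside 7.18% and 8.77%. At least 1 of these 3 was found in 44 of 69 members (63.8%), beside 25.9% and 38.7%. GGGCGG (GC box) was no more frequent in members, at 49.3% beside 49.2% and 69.5%. TGACGTCA (CREB) was found in 2.90%, beside 2.54% and 3.92%. The letters TATAAA of the core promoter were found in 7.25% of members, beside 14.8% and 7.91%. Both strands were searched. The letters of the ETS and GC box motifs can overlap, as they do in Mrpl17 below.

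Paired and unpaired members both held these motifs. At least 1 of the ETS, NRF1 and YY1 motifs was found in 18 of 25 paired members (72.0%), beside 51.0% of all protein-coding genes with a facing start. Among unpaired members it was found in 26 of 44 (59.1%), beside 25.9% of all protein-coding genes, paired and unpaired together. The windows of the members had a median GC content of 58.7% and a ratio of observed to expected CpG of 0.82, beside 56.3% and 0.57 for all genes and 61.3% and 0.77 for those open in all 3 lists. Mrpl17, which has no facing start in the table, is shown as a member with ETS, NRF1 and GC box matches together. The 250 bases before its start lie at chr7:105811088-105811337 on the minus strand, and its best peak had folds of 6.35, 6.34 and 13.12.
Mrpl17: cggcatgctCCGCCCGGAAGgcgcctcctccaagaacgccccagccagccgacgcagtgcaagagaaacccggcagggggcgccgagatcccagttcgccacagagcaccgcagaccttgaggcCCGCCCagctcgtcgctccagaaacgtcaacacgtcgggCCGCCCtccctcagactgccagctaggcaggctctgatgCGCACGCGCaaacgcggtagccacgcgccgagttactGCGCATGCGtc

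**Figure D5:**
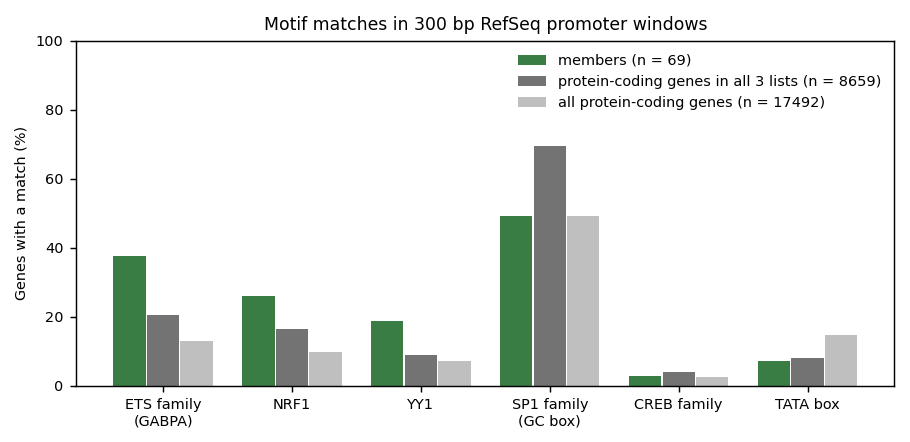
Share of genes (vertical axis, percent) with at least 1 match to each motif in the RefSeq promoter window, for members, for protein-coding genes that have end peaks in all 3 lists and for all protein-coding genes. The members' bars are the tallest for the ETS (37.7%), NRF1 (26.1%) and YY1 (18.8%) motifs and not for the SP1, CREB or TATA motifs.

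The rest of the machinery for mitochondrial gene expression gave like counts. Of 77 genes listed for it that are not members, 68 (88.3%) had an end peak in all 3 lists, 7 in some and 2 in none. Over all protein-coding genes the shares were 49.0% in all 3 lists, 15.4% in some and 35.5% in none. All 6 genes of a list of further ribosomal proteins had one in all 3 lists, among them Dap3 and Ptcd3 of the small subunit. That list also held Mrpl58, a peptidyl-tRNA hydrolase within the ribosome, which is a member here. The translation factor genes did so in 10 of 12, including the elongation factors Tufm and Gfm1, with Tsfm and Mtif3 lacking one in EXT 1. Mitochondrial aminoacyl-tRNA synthetase genes did so in 17 of 19, with Aars2 in no list, and assembly factor genes in 21 of 23. Genes of mitochondrial transcription and RNA did so in 9 of 10, including the polymerase gene Polrmt and Tfam. Of the nuclear regulators, 6 of 8 did so, among them Nrf1 and Gabpa, and Gabpb1 was in no list.

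Copies of member genes without coding function were also looked at. Of 6 pseudogenes with a member's name, 1 had an end peak in RC 3 (Mrpl27-ps), 0 in EXT 1 and 1 in EXT 2 (Mrpl48-ps). No share over all pseudogenes stands beside these counts, and nothing is read from them.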

How the data were processed

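ATAC-seq peak lists of 5 libraries were used. Peak calling was done by the authors, 1 library at a time, with MACS2 2.2.4 and no control library, per the file headers. Tags were shifted by -75 bp and extended to 150 bp, duplicates were all kept, and the cutoff was a q-value of 0.05, per the file headers. Per the submitters' processing notes the build was mm10 and the tools included BWA 0.7.17 and HISAT2 2.1.0 as aligners, with SAMtools 1.8, bedtools 2.27.1, cutadapt 1.17 and StringTie 2.1.4. Which of the aligners served ATAC-seq, the sources used here do not say. The deposited pileup is a signal in whole tags at the summit, and the deposited fold is its ratio to the local background. The −log10 values of p and q that the authors deposited rest on that background, and −log10 q served in alternatives only. With duplicates kept, a peak can come from a small number of molecules. The incomplete last line of 2 lists was dropped.

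Gene ends came from the RefSeq gene table and starts, strand and promoter sequence from the RefSeq promoter table, both GRCm38.p6. An end peak had 1 bp or more within 1 kb of an annotated end, on either side, and the best one had the highest fold. Shares have exact (Clopper-Pearson) 95% intervals. No test between RC and EXT was run, because 1 RC list is complete, and replicates are pools of mice. Named members were the 5 highest and 5 lowest by mean percentile, those with a peak in some or no list, those on chromosome 1, the 3 widest and narrowest and the closest shared pairs. Members whose sequences are printed were chosen after their values were seen. The members and lists were chosen with earlier results of these data known. The search for end peaks was tested on simulated data. Alternatives changed the window, threshold, width, overlap, list length, choice of best peak and libraries. Python 3.11.15, pandas 2.3.3, NumPy 2.4.6, SciPy 1.17.1 and matplotlib 3.10.9 were used.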

Additional observations from a re-analysis of the deposited data

How the results depend on the processing

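Of 163 alternative values over 19 results, 144 stayed within the interval of the reported value or within 1.5 times the reported count. With windows of 500 bp the RC replicate 3 share was 87.2%, 6 members had no end peak, and the EXT less RC difference was 1.92 points in place of -1.92. With windows of 2 kb the EXT replicate 2 share was 98.7% and 0 members had none. With peaks at least 200 bp wide the RC replicate 3 share was 87.2%, the median percentiles of RC replicate 3 and EXT replicate 1 were 82.9 and 78.2, 5 members had none, and the difference was 1.92 points. With −log10 q of at least 5 the median percentiles of EXT replicates 1 and 2 were 59.0 and 74.5, and with lists of equal length that of EXT replicate 2 was 70.2; both remove peaks, so the ranks are over shorter lists. At RefSeq starts only, 5 members had a peak in some lists and 1 in none. Counting any peak in the gene body or up to 1 kb outside, an alternative chosen after seeing the data, gave an EXT replicate 2 share of 98.7%, 5 members in some lists and 0 in none. Leaving out 1 library at a time, members with a peak in every remaining list numbered 69 to 73, in some 2 to 7 and in none 2 to 3, and the difference was -3.85 to 0 points; without EXT replicate 1, 2 members were in some lists. For the other moved values the cause was not tested. No paired analysis was possible because the 3 complete lists, RC replicate 3 and EXT replicates 1 and 2, share no replicate number.

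The lists hold calls and not read counts, so signal under the threshold at a member without a peak is not seen. Over the 3 complete lists the number of peaks did not follow the number of tags, since EXT replicate 2 has the fewest tags, 57663722, and the most peaks, 123375. EXT replicate 1, with 65002147 tags, has the fewest peaks, 80735, and its list lacks 5 members that both other lists hold. The same was true of 4.69% of all protein-coding genes. Narrow peaks of about 160 bp recur at identical bounds between libraries, and their part in the results was tested only through the width limit of 200 bp.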

Other observations

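Outside the members, Lars2, the mitochondrial leucyl-tRNA synthetase gene, had an end peak near the top of every complete list; the genes in this paragraph were named after their values were seen. Its best end peak was 529 bp wide in each of the 3 complete lists, with folds in RC replicate 3 and EXT replicates 1 and 2 of 30.35, 28.67 and 29.41 and a percentile of 99.9 in each list. Taco1, from the list of translation factors, likewise had a peak of 1 width, 231 bp, in each list, with folds of 42.42, 31.78 and 38.50. Where these peaks lie relative to the gene starts is not given. The cause of their height and constant width was not tested, so they are not read as unusually open promoters. Gadd45gip1, a large subunit protein gene without an Mrpl symbol, stood low in each list, with folds of 2.43, 2.05 and 3.16 at percentiles 5.9, 0.2 and 21.2. Chchd1, of the small subunit, had folds of 2.90, 2.42 and 4.06 at percentiles 22.7, 3.9 and 43.0.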
